A study of Homo sapiens with 6 samples.

Results

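The miR-193 and miR-365 microRNAs are made from hairpins that lie in pairs, MIR193B with MIR365A on chromosome 16 and MIR193A with MIR365B on chromosome 17. They were followed here through 6 small RNA libraries of TGF-β1-treated lung epithelial lines. The members were the 6 mature names hsa-miR-193a-3p, hsa-miR-193a-5p, hsa-miR-193b-3p, hsa-miR-193b-5p, hsa-miR-365a-3p and hsa-miR-365b-3p, chosen by name out of 2588 miRNA names in the count data. The choice was made with the treated-to-untreated ratios of these libraries already known, so those ratios are given as a description without a test. A549 (a line from a human lung adenocarcinoma) and BEAS-2B (immortalised human bronchial epithelium) were kept for 48 h in RPMI1640 with 1% FBS and TGF-β1 at 0, 1 or 5 ng/mL. The untreated cells of each line served as its control, and both lines are cell culture models without the other cells of a lung. Each line and dose gave 1 library and there were no replicates, so each interval below covers counting error only and no p-value is given.

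A microRNA hairpin is cut by Drosha and Dicer into a short duplex, and either strand, the 5p or the 3p arm, can be loaded into an Argonaute protein. The loaded strand finds its targets mainly through its seed, bases 2 to 8 from the 5′ end. miR-193a-3p and miR-193b-3p are best known as repressors of growth genes such as MCL1, CCND1 and PLAU, and the chromosome 16 pair is also known for its expression in brown fat. TGF-β1 drives epithelial cells toward a mesenchymal state and matrix production.

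The mature sequences show which members can be told apart by sequencing and which cannot. All 6 names matched an entry in RefSeq (GRCh38.p14), and the 5p arms of the miR-365 hairpins, which are not members, are shown with them because they report on the same precursors. Capitals mark the seed.
hsa-miR-193b-3p: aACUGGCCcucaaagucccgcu
hsa-miR-193a-3p: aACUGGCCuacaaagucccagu
hsa-miR-193b-5p: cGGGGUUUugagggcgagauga
hsa-miR-193a-5p: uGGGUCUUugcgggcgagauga
hsa-miR-365a-3p: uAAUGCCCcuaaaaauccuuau
hsa-miR-365b-3p: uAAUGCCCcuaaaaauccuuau
hsa-miR-365a-5p: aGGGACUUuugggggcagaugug
hsa-miR-365b-5p: aGGGACUUucaggggcagcugu

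The 3p arms of miR-193a and miR-193b shared the seed ACUGGCC and 18 of 22 bases. Counting from the 5′ end, with the miR-193b base first, they differed by C9U, U10A, G20A and C21G, all outside the seed. The 5p arms also shared 18 of 22 bases, but 2 of their 4 differences, G5U and U6C, fell in the seed, beside C1U and A11C. The 2 names miR-365a-3p and miR-365b-3p stand for 1 identical sequence of 22 bases. The miR-365 5p arms kept a common seed, GGGACUU, and differed by U10C, G11A and A19C over the first 22 bases. Among the 2281 names in the count data with a RefSeq mature sequence, no further miRNA had the seed of a member.

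Both hairpins of each pair lie on the plus strand. MIR193B (chr16:14303967-14304049) and MIR365A (chr16:14309285-14309371) are 5235 bp apart, and both sit in introns of the long noncoding RNA MIR193BHG, since none of the 4 GENCODE release 29 transcripts over either hairpin has an exon there. MIR193A (chr17:31559996-31560083) and MIR365B (chr17:31575411-31575521) are 15327 bp apart. MIR365B lies in the long noncoding RNA MIR365BHG, in an exon of the GENCODE transcript there, and no host gene was found over MIR193A. The hairpin MIR4725 begins between them and ends 52 bp before MIR365B; both of its arms had 0 reads in all 6 libraries, which allows up to 3 reads in each.

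The libraries held 633318 to 900424 reads, of which the 6 members took 0.0892% to 0.217%. miR-21-5p took 47.6% to 56.8% of the A549 libraries, 35.4% of the BEAS-2B control and 53.3% to 57.2% of the treated BEAS-2B libraries. Counts were scaled by the trimmed mean of M-values (TMM) to a common library size of 749498 and are called normalised counts. The normalised data value (ND) is log2 of the normalised count plus 1, and a log2 ratio is a difference of ND values. The criteria took the study's values, an ND of at least 8 (a normalised count of 255) and a fold change of at least 1.4. A miRNA was counted as higher or lower when it met the ND criterion in the greater library and passed the fold criterion. The paper does not say in which library the ND was required, and the scaling and the greater-library rule were chosen here. The BEAS-2B control had a TMM factor of 1.32 against 0.829 to 1.02 elsewhere. Plain total-count scaling shifts BEAS-2B log2 ratios to control by -0.43 at 1 ng/mL and -0.41 at 5 ng/mL, and A549 ratios by -0.14 and 0.16. These shifts are before the pseudocount of ND, which makes them smaller for the lowest counts.

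Markers of the labelled cell type were sparse. Of the 7 epithelial miRNAs listed, 6 or 7 had reads in each library, with summed counts of 237 to 399 in A549 and 299 to 472 in BEAS-2B. The miR-200 family member miR-200b-3p made up most of them, while miR-205-5p had at most 2 reads and miR-141-3p at most 8. The 5 fibroblast and smooth muscle miRNAs summed to 156, 1729 and 1156 reads in A549 at 0, 1 and 5 ng/mL and to 14, 70 and 109 in BEAS-2B. miR-143-3p made up most of that sum in 5 libraries and 7 of the 14 reads in the BEAS-2B control, and miR-214-3p, which marks mesenchymal cells, had 0 reads in all 6 libraries. Blood markers summed to 0 to 9 reads, miR-122-5p of liver had 1 to 14, and muscle markers summed to 0 to 3 with miR-133a-3p and miR-206 at 0. The fibroblast sum was higher in every treated library, as were several values below, and its part in them was not tested. That rise came from miR-143-3p and miR-145-5p. The counts of miR-199a-3p and miR-199a-5p, at most 4 reads, were not above control in any treated library.

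The most abundant members were miR-193b-3p and the miR-365 3p arms, and their highest levels came at different doses in the 2 lines. miR-193b-3p, which targets the growth genes named above, had 360, 677 and 405 reads in A549 at 0, 1 and 5 ng/mL, or 375, 680 and 471 normalised counts. In BEAS-2B it had 138, 127 and 370 reads, or 106, 147 and 363 normalised counts. The highest A549 level was thus at 1 ng/mL and the highest BEAS-2B level at 5 ng/mL. The log2 ratio to control in A549 was 0.86 (95% counting interval 0.67 to 1.05) at the lower dose and 0.33 (0.12 to 0.54) at the higher dose. In the bronchial line it was 0.47 (0.11 to 0.83) at the lower dose and 1.76 (1.49 to 2.07) at the higher dose. The last value was a 3.39-fold difference. The A549 ratio at 1 ng/mL ranged from 0.72 to 0.91 under the 7 scalings tried. That in BEAS-2B at 5 ng/mL ranged from 1.36 to 1.94, whereas the BEAS-2B ratio at 1 ng/mL ranged from -0.12 to 0.51 and changed sign with unscaled counts.

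**Figure D1:**
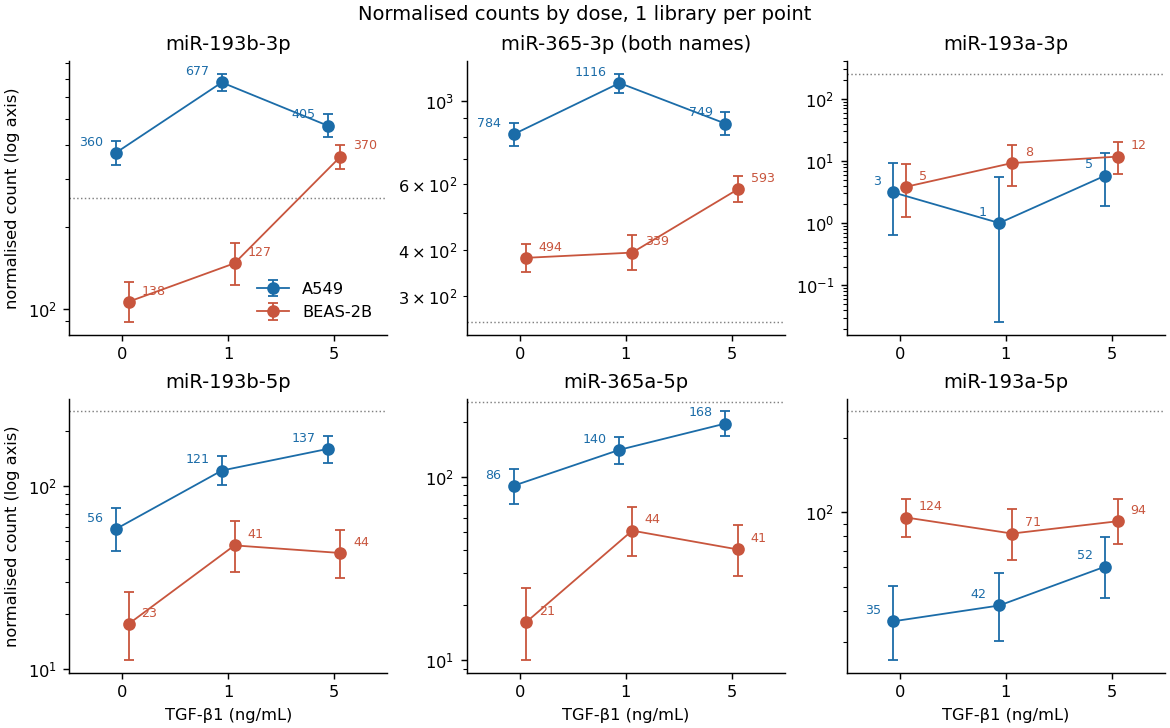
Normalised count (log axis, a different range in each panel) against TGF-β1 dose (0, 1 and 5 ng/mL) for 4 members, the miR-365-3p sum of both names and the non-member miR-365a-5p in A549 (blue) and BEAS-2B cells (red). Each point is 1 library, labelled with its raw read count, bars are exact 95% Poisson intervals, and the dotted line is the normalised count of 255 at an ND of 8. miR-193b-3p peaked at 1 ng/mL in A549 (680) and at 5 ng/mL in BEAS-2B (363), while miR-193b-5p and miR-365a-5p were above their control in every treated library.

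miR-365-3p reads were listed under 2 names. The name miR-365a-3p had 392, 576 and 377 reads for A549 and 229, 180 and 299 for BEAS-2B, and miR-365b-3p had 392, 540 and 372 for A549 and 265, 159 and 294 for BEAS-2B. The share under the first name ran from 46.4% to 53.1%, and the exact binomial 95% interval included 50% in all 6 libraries. Since the 2 sequences are identical, a count under either name does not say which chromosome its reads came from, and the names were summed.

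Summed miR-365-3p had the most reads among the members in every library. It had 784, 1116 and 749 reads in A549, or 816, 1121 and 872 normalised counts, and 494, 339 and 593 reads in BEAS-2B, or 380, 392 and 581 normalised counts. As with miR-193b-3p, the A549 level was highest at 1 ng/mL and the BEAS-2B level at 5 ng/mL. The log2 ratio in A549 was 0.46 (0.32 to 0.59) at the lower dose and 0.10 (-0.05 to 0.24) at the higher dose. For BEAS-2B it was 0.05 (-0.16 to 0.25) at the lower dose and 0.61 (0.44 to 0.79) at the higher dose. The counting interval thus included 0 at 5 ng/mL in A549 and at 1 ng/mL in BEAS-2B. The BEAS-2B ratio at 5 ng/mL ranged from 0.20 to 0.79 over the scalings and that at 1 ng/mL from -0.54 to 0.09. The A549 ratio ranged from 0.32 to 0.51 at 1 ng/mL and from -0.066 to 0.25 at 5 ng/mL.

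By these criteria, few members could be counted at all, because both miR-193a arms and miR-193b-5p stayed under an ND of 8 in every library. In A549 cells at 1 ng/mL, 3 of the 6 members met the ND criterion and 2, miR-193b-3p and miR-365a-3p, were higher; over all miRNAs that met it, 48.9% passed in either direction and 27% were higher. At 5 ng/mL in A549, 3 met the ND criterion and 0 passed, against 53.2% of all. None of the 6 met it in BEAS-2B at 1 ng/mL, where 29.2% of all miRNAs that did passed. At 5 ng/mL in BEAS-2B, 3 members met it and all 3 were higher, against 36% of all in either direction and 20% higher. Those 3 names carry 2 distinct sequences. They reached an ND of 8 only in the treated library, so a member counted there had to differ. With the ND criterion on both libraries 0 remained, and 1 (miR-193b-3p) passed when total-count scaling was used. Counted as 1 sequence, miR-365-3p had an ND of at least 8.57 in every library and was past the fold criterion at 5 ng/mL in BEAS-2B (1.53-fold) but not at 1 ng/mL in A549 (1.37-fold).

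**Figure D2:**
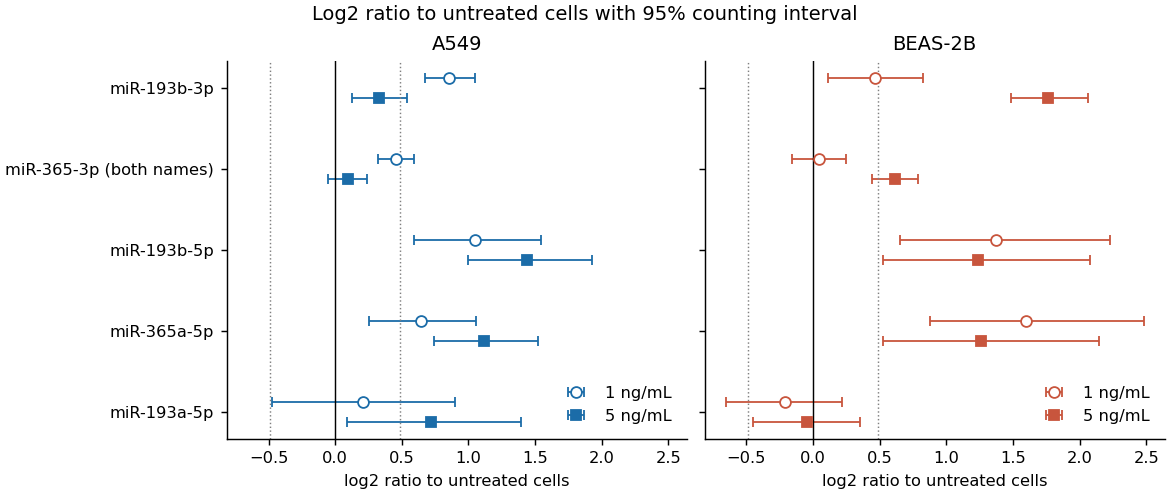
Log2 ratio of normalised counts to the untreated library (x axis) for 3 members, the miR-365-3p sum and the non-member miR-365a-5p, with A549 on the left and BEAS-2B on the right. Open circles are 1 ng/mL, filled squares 5 ng/mL, bars the 95% counting interval, and dotted lines a fold of 1.4. In BEAS-2B miR-193b-3p at 5 ng/mL lay at 1.76 (1.49 to 2.07). The intervals of miR-193a-5p included 0 at each dose in BEAS-2B and at 1 ng/mL in A549. That in A549 at 5 ng/mL, 0.09 to 1.39, did not.

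The 5p arms of the chromosome 16 hairpins were less abundant and had another dose pattern. miR-193b-5p had 56, 121 and 137 reads in A549, or 58.3, 121 and 159 normalised counts. It had 23, 41 and 44 reads in BEAS-2B, or 17.7, 47.5 and 43.1 normalised counts. All 4 treated libraries were above their control. The log2 ratio in A549 was 1.05 (0.59 to 1.54) at the lower dose and 1.44 (0.99 to 1.93) at the higher dose. The BEAS-2B values were 1.37 (0.65 to 2.23) and 1.24 (0.53 to 2.08). Over the 7 scalings the lowest of these 4 ratios was 0.81.

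miR-365a-5p, the 5p arm of the neighbouring hairpin, is not a member but has its own sequence and so can be assigned to chromosome 16. It had 86, 140 and 168 reads for A549 and 21, 44 and 41 for BEAS-2B. Its log2 ratio was 0.65 (0.25 to 1.06) and 1.12 (0.74 to 1.52) for A549 and 1.60 (0.88 to 2.48) and 1.26 (0.52 to 2.15) for BEAS-2B at 1 and 5 ng/mL. The 4 treated libraries were again all above control, and over the scalings the lowest ratio was 0.51. The share of miR-365a-5p in the sum of both chromosome 16 5p arms was 47.7% to 60.6%, and none of the 9 odds ratios between libraries had a 95% interval without 1.

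**Figure D3:**
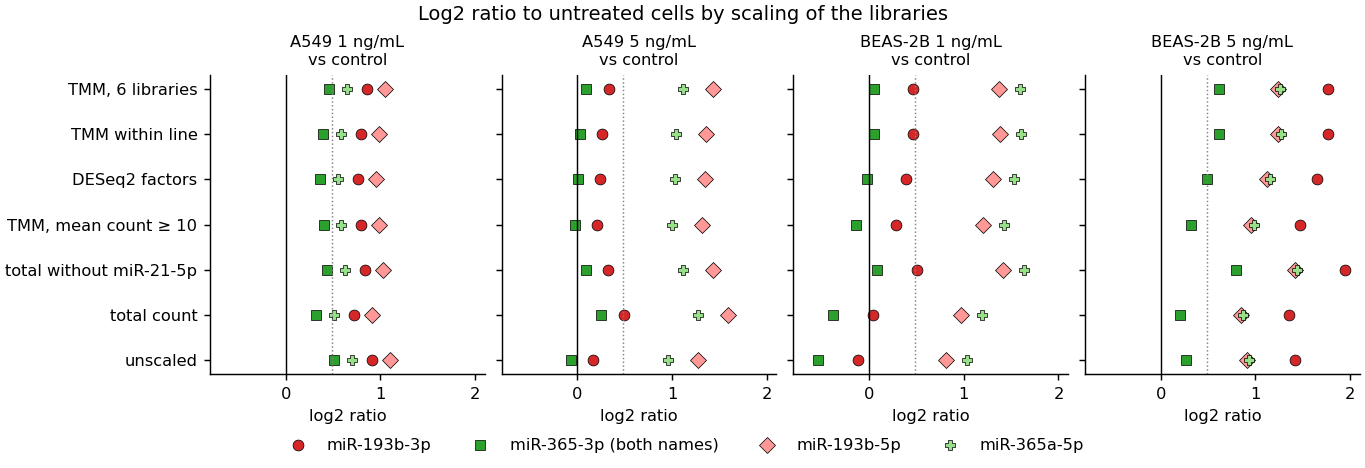
Log2 ratio to the untreated library (x axis) under each of 7 scalings of the libraries (rows) in the 4 treated libraries (panels), for miR-193b-3p, the miR-365-3p sum, miR-193b-5p and the non-member miR-365a-5p, with a dotted line at a fold of 1.4. The 5p arms stayed above 0 in every row, while miR-365-3p at 1 ng/mL in BEAS-2B ran from -0.54 to 0.09.

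Because the arms of a hairpin come from 1 precursor and are counted in 1 library, their ratio does not depend on scaling. miR-193b-3p made up 86.5% (exact 95% interval 82.9 to 89.7), 84.8% (82.2 to 87.3) and 74.7% (70.8 to 78.3) of the miR-193b reads in A549 at 0, 1 and 5 ng/mL. In the bronchial line it made up 85.7% (79.3 to 90.7), 75.6% (68.4 to 81.9) and 89.4% (86.0 to 92.2). The 2 untreated lines were thus close, the lowest A549 share was at 5 ng/mL, and the lowest BEAS-2B share was at 1 ng/mL. The odds of a 3p read against control changed by a ratio of 0.870 (0.607 to 1.24) at the lower dose and 0.460 (0.321 to 0.654) at the higher dose in A549. In BEAS-2B the ratios were 0.517 (0.280 to 0.938) and 1.401 (0.777 to 2.47).

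Such shifts of arm share beyond counting error were common among other hairpins, so they are read against that background, which uses hairpins with at least 20 reads of each arm in both libraries and was added after the data were seen. The odds ratio interval did not include 1 for 32% of 50 hairpins in A549 at 1 ng/mL, where that of miR-193b included it, and for 57.1% of 49 at 5 ng/mL, where miR-193b ranked 3 from the lowest. In BEAS-2B it did not include 1 for 28.8% of 52 hairpins at 1 ng/mL, where miR-193b ranked 5 from the lowest. At 5 ng/mL it did not include 1 for 35.2% of 54, where that of miR-193b included 1. Of the hairpins past this limit in A549, 9 had a lower and 7 a higher 3p share at 1 ng/mL, and 16 and 12 at 5 ng/mL. In BEAS-2B 11 had a lower and 4 a higher share at 1 ng/mL, and 9 and 10 at 5 ng/mL. Between 5 and 1 ng/mL the shares were 34% of 53 hairpins in A549 and 28% of 50 in BEAS-2B. In that comparison miR-193b had the lowest odds ratio of the 53 in A549, 0.529 (0.398 to 0.701), and the highest of the 50 in BEAS-2B, 2.71 (1.64 to 4.46).

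The arms of miR-365 showed their lowest 3p shares in the same libraries. The summed 3p arm made up 90.1%, 88.9% and 81.7% of miR-365-3p plus miR-365a-5p reads in A549 and 95.9%, 88.5% and 93.5% in BEAS-2B. The odds ratio to control was 0.489 (0.366 to 0.651) at 5 ng/mL in A549 and 0.328 (0.182 to 0.575) at 1 ng/mL in BEAS-2B. It was 0.874 (0.650 to 1.17) at 1 ng/mL in A549 and 0.615 (0.340 to 1.08) at 5 ng/mL in BEAS-2B. These ratios were not ranked among other hairpins. A lower 3p share was the more frequent shift in the background, in 16 of 28 hairpins in A549 at 5 ng/mL. In BEAS-2B at 1 ng/mL it was seen in 11 of 15. An unknown part of the 3p reads may come from MIR365B. Of the 5p reads that tell the hairpins apart, miR-365b-5p had 2, 5 and 1 for A549 and 3, 1 and 1 for BEAS-2B, and miR-365a-5p made up 87.5% to 99.4%.

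**Figure D4:**
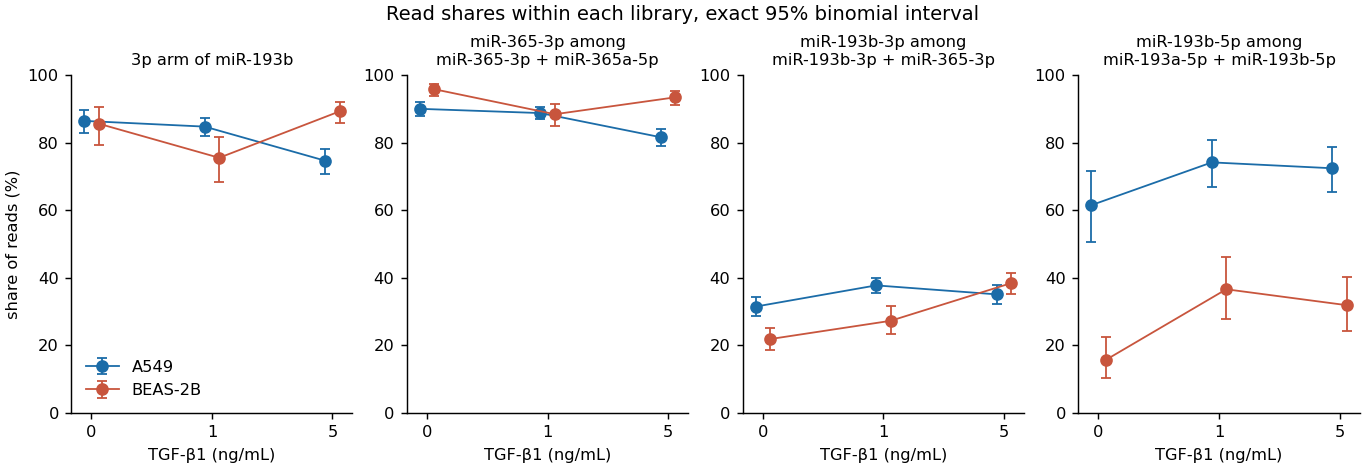
Share of reads in percent (y axis, 0 to 100) against TGF-β1 dose for 4 pairs of products counted in the same library, in A549 (blue) and BEAS-2B cells (red), with exact 95% binomial intervals. The 3p share of miR-193b was lowest at 5 ng/mL in A549 (74.7%) and at 1 ng/mL in BEAS-2B (75.6%), and the miR-193b-5p share of both miR-193 5p arms was higher in A549 at every dose.

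Set against miR-365-3p, miR-193b-3p took a larger share of reads in treated cells. It made up 31.5%, 37.8% and 35.1% of their summed reads in A549 and 21.8%, 27.3% and 38.4% in BEAS-2B. All 4 treated libraries had a higher share than their control. Against control, the A549 odds ratio was 1.32 (1.13 to 1.55) at the lower dose and 1.18 (0.986 to 1.41) at the higher dose. For BEAS-2B it was 1.34 (1.01 to 1.79) and 2.23 (1.77 to 2.83). The interval included 1 at 5 ng/mL in A549 and not in the other 3 treated libraries. Other pairs of different miRNAs were not examined, so how common such shifts are is not known.

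The 5 ng/mL libraries were also compared directly with the 1 ng/mL libraries, which takes the controls out. miR-193b-3p had a log2 ratio of -0.53 (-0.71 to -0.35) for A549 and 1.30 (1.01 to 1.61) for BEAS-2B. The latter was the highest among 121 miRNAs meeting the ND criterion, which miR-193b-3p met at 5 ng/mL alone. Summed miR-365-3p had -0.36 (-0.50 to -0.23) for A549 and 0.57 (0.37 to 0.76) for BEAS-2B. Both 3p products were thus lower at 5 than at 1 ng/mL in A549 and higher in BEAS-2B. miR-193b-5p had 0.39 (0.03 to 0.76) and -0.14 (-0.79 to 0.51), the opposite signs, with an interval that included 0 in BEAS-2B. In each line 3 of the 6 members met the ND criterion. In A549 1 of these 3 (miR-193b-3p) was lower, where 16.9% of all miRNAs that met it passed in either direction and 8.46% were lower. In BEAS-2B the 3 were higher, against 6.61% in either direction and 5.79% higher; these met the ND criterion at 5 ng/mL alone, so a member counted there had to differ, and 0 passed when it was asked of both libraries. Total-count scaling brought the A549 ratio of miR-193b-3p to -0.23 and that of summed miR-365-3p to -0.068. With it the count of members past the criteria in A549 was 0.

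**Figure D5:**
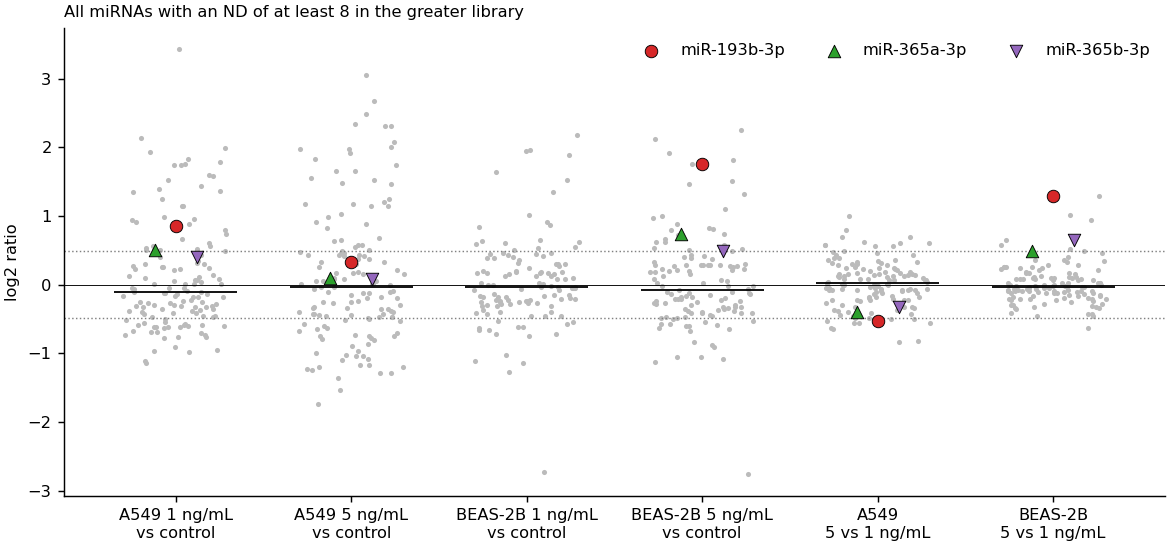
Log2 ratio (y axis) of every miRNA with an ND of at least 8 in the greater library in 6 comparisons (x axis), each grey point 1 miRNA with random sideways scatter, black lines the median and dotted lines a fold of 1.4. The 3p members are coloured where they met the ND criterion. In BEAS-2B miR-193b-3p was the highest point for 5 against 1 ng/mL (1.30). It met the ND criterion there at 5 ng/mL alone, so its place among the points rests on that library. In A549 it lay below the median for the same comparison (-0.53).

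The chromosome 17 hairpin MIR193A gave mostly 5p reads, which carry another seed than miR-193b-5p. miR-193a-5p had 35, 42 and 52 reads for A549 and 124, 71 and 94 for BEAS-2B, or 36.4, 42.2 and 60.5 and 95.4, 82.2 and 92.2 normalised counts. The A549 libraries were below all BEAS-2B libraries on this scale. Its log2 ratio was 0.21 (-0.47 to 0.90) and 0.72 (0.09 to 1.39) in A549 at 1 and 5 ng/mL. In the bronchial line it was -0.21 (-0.66 to 0.22) and -0.05 (-0.45 to 0.35). Of these 4 intervals only that of A549 at 5 ng/mL did not include 0, and the BEAS-2B ratio at 5 ng/mL ran from -0.46 to 0.13 over the scalings.

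miR-193a-3p, with the seed of miR-193b-3p, was near the limit of detection. It had 3, 1 and 5 reads for A549 and 5, 8 and 12 for BEAS-2B, where 3 reads is the limit that a count of 0 allows. Its log2 ratio at 5 ng/mL was 0.73 (-1.46 to 3.59) for A549 and 1.397 (0.00 to 3.47) for BEAS-2B, too wide to rank. It made up 2.33% to 11.3% of the miR-193a reads, the reverse of miR-193b, whose 3p arm held most reads. Of the 3p reads with the shared seed, miR-193b-3p supplied 98.8% to 99.9% in A549 and 94.1% to 96.9% in BEAS-2B.

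The 5p paralogues were split differently in the 2 lines. miR-193b-5p made up 61.5% (50.8 to 71.6), 74.2% and 72.5% of the miR-193 5p reads in A549. It made up 15.6% (10.2 to 22.5), 36.6% and 31.9% in BEAS-2B. Every A549 share was above every BEAS-2B share, and the odds ratio between the untreated lines was 8.53 (4.48 to 16.7). In BEAS-2B the odds ratio to control was 3.10 (1.66 to 5.88) at the lower dose and 2.52 (1.38 to 4.69) at the higher dose. In A549 cells the ratios were 1.80 (0.999 to 3.23) and 1.64 (0.933 to 2.89), with intervals that included 1. These ratios too were not set against other pairs of miRNAs.

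Untreated A549 cells held more of both miR-193b arms, of miR-365a-5p and of miR-365-3p than untreated BEAS-2B cells. The log2 ratio of A549 to BEAS-2B was 1.81 (1.53 to 2.11) for miR-193b-3p, 1.66 (1.00 to 2.49) for miR-193b-5p and 1.10 (0.94 to 1.27) for summed miR-365-3p. It was 2.40 (1.77 to 3.23) for miR-365a-5p. For miR-193a-5p it was -1.37 (-1.97 to -0.84), so this chromosome 17 product was lower in A549. Of the 6 members 3 met the ND criterion in these comparisons, miR-193b-3p and both miR-365-3p names. In untreated cells the 3 were higher in A549, where 68.9% of all miRNAs that met it passed in either direction and 40.7% were higher. At 1 ng/mL the 3 were again higher, against 64.3% in either direction and 38.5% higher, and at 5 ng/mL 2 were, against 67.8% and 38.4%. In untreated cells and at 1 ng/mL they met the criterion in the A549 library alone, and nothing is read from these counts. The gap in miR-193b-3p was 2.20 (1.93 to 2.49) at the lower dose and 0.38 (0.17 to 0.59) at the higher dose. At 5 ng/mL the gap in miR-193b-3p was thus 1.30-fold, under a fold of 1.4, though its interval reached past that fold. The gap in miR-193b-5p there was 1.86 (1.39 to 2.41). Other scalings were not tried for the treated lines compared with each other.

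The response to TGF-β1 was set against the line. The log2 ratio in A549 minus that in BEAS-2B was 0.39 (-0.00 to 0.79) at the lower dose and -1.43 (-1.78 to -1.08) at the higher dose for miR-193b-3p. It was 0.41 (0.17 to 0.65) and -0.52 (-0.74 to -0.29) for summed miR-365-3p. For miR-193b-5p it was -0.33 (-1.19 to 0.54) and 0.20 (-0.66 to 1.05). The 3p products had the greater ratio in BEAS-2B at 5 ng/mL beyond counting error under TMM. With total-count scaling, summed miR-365-3p had 0.25 in A549 and 0.20 in BEAS-2B at that dose, so its order turned, while miR-193b-3p had 0.49 and 1.36. No such difference was detectable at this depth for miR-193b-5p. The other chromosome 16 5p arm, miR-365a-5p, had a difference of -0.95 (-1.80 to -0.11) at the lower dose, the greater ratio being in BEAS-2B, and -0.15 (-0.99 to 0.70) at the higher dose. With 1 library a group, the spread between cultures is unknown.

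Likeness of pattern was described by Pearson's r of ND over the 6 libraries among 156 other miRNAs that reached an ND of 8 somewhere. The points share libraries and controls, and much of their range is the gap between the lines. Nearest to miR-193b-3p were miR-365a-3p (0.970), miR-365b-3p (0.943) and miR-143-3p (0.911). Nearest to miR-365a-3p were miR-365b-3p (0.981), miR-193b-3p (0.970) and miR-31-5p (0.951), and nearest to miR-365b-3p were miR-365a-3p (0.981), miR-96-5p (0.943) and miR-31-5p (0.943). The names miR-365a-3p and miR-365b-3p were kept apart here though their sequence is identical. Their likeness to each other is therefore not a result, and as neighbours of miR-193b-3p they are the same product. By Spearman's rho the order for miR-193b-3p was another, with miR-31-5p, miR-143-3p and miR-365a-3p level at 1 and miR-365b-3p at 0.943. The normalised counts of miR-143-3p, a miRNA of smooth muscle and fibroblasts, were 154, 1665 and 1287 for A549 and 5.38, 71.8 and 99.0 for BEAS-2B.

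Other miRNAs known from brown and beige fat were past the criteria about as often as all miRNAs. Of 20 miRNAs listed for brown and beige fat, 10 met the ND criterion in each A549 comparison and 11 in each BEAS-2B comparison. In A549 cells 3 were higher and 3 lower at 1 ng/mL, and 2 and 4 at 5 ng/mL, where 48.9% and 53.2% of all miRNAs that met it passed in either direction. In BEAS-2B 2 were higher and 1 lower at each dose, where 29.2% and 36% of all passed. Their median log2 ratio was -0.21 and -0.39 for A549 and -0.23 and -0.15 for BEAS-2B, beside -0.11, -0.03, -0.04 and -0.08 over all miRNAs tested. miR-455-3p and miR-455-5p, known for their induction in brown fat, were higher in all 4 comparisons, with log2 ratios of 1.39 to 2.25. miR-30c-5p was lower in all 4. In A549 miR-27a-3p was also higher at 1 ng/mL. There miR-27b-3p and miR-30b-5p were lower at 1 and 5 ng/mL, and miR-32-5p was lower at 5 ng/mL.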

How the data were processed

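Small RNA libraries were made by the authors from total RNA of A549 and BEAS-2B cells, 1 library for each line and dose. The deposited files list whole-number counts of reads, not normalised, for 2588 mature miRNA names per library. Per the labels, the submitters' processing notes name Bowtie2 and bedtools; the build, the miRNA annotation and the treatment of strand and of reads with several matches are not given in the sources used here. The members and the lists were chosen with earlier results of these data known. A further miRNA list is not reported here.

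Counts were scaled by TMM over all 6 libraries (edgeR 4.0.16, R 4.3.3), with a pseudocount of 1 in ND. Ratio intervals were exact conditional binomial (Clopper-Pearson) and odds ratio intervals exact conditional, at 95%, in Python 3.11.15 with numpy 2.4.6, pandas 2.3.3 and scipy 1.17.1. Ratio intervals were taken from counts without the pseudocount, which each printed log2 ratio holds. The printed ratio is thus smaller in size than the ratio its interval belongs to, most so at low counts. Both kinds of interval cover counting error of reads only and leave out the error of scaling. Reads without molecular identifiers are not independent molecules, so the intervals may be too narrow for the error in counting molecules. The intervals of line differences were normal approximations from the read counts of both ratios, not exact ones. A read share compares reads, not molecules. The scripts were tested on simulated Poisson counts drawn from a pooled profile shared by both lines. Known changes were placed in the 5 ng/mL libraries only. The test thus covered neither a difference in composition between the lines nor spread between cultures. The miRNAs named were the members, the other arms and nearby hairpins, and the 3 nearest in pattern to each member with an ND of at least 8. List members past the criteria, cell type markers and miR-21-5p were named too. The alternatives were total-count scaling, DESeq2 1.42.0 size factors, TMM within each line, unscaled counts, totals without miR-21-5p, TMM on miRNAs with a mean count of at least 10, a pseudocount of 10, other ND and fold criteria and Spearman's rho.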

Additional observations from a re-analysis of the deposited data

Results flagged for a closer look

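Several members had log2 ratios of opposite sign in the 2 lines; with 1 library a group these differences were not tested. miR-193a-5p was above control in both treated A549 libraries and below it in both treated BEAS-2B libraries, and at 5 ng/mL the log2 ratio in A549 minus that in BEAS-2B was 0.77. Of the 4 ratios to control, only that of A549 at 5 ng/mL had a counting interval without 0. With totals that leave out miR-21-5p, the BEAS-2B ratio at 5 ng/mL was 0.13, above control. Between 5 and 1 ng/mL, the A549 ratio minus the BEAS-2B ratio was -1.82 for miR-193b-3p, -0.89 for miR-365a-3p, -0.97 for miR-365b-3p and -0.93 for their sum, each lower for A549 and higher for BEAS-2B. For miR-193b-5p the same difference was 0.52, higher for A549 and lower for BEAS-2B. The BEAS-2B ratio of miR-193b-5p ran from -0.25 to 0.10 over the scalings, with an interval that included 0.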

How the results depend on the processing

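Of 262 recomputed values for miR-193b-3p, summed miR-365-3p and the counts past the criteria, 188 stayed within the counting interval or within 1.5 times the count, 74 moved further and 8 changed sign. Of 306 values for single miRNAs and correlations, 284 stayed, 22 moved and 10 changed sign. What set the scaling factors apart was not tested. No paired analysis was possible because each group had 1 library and the labels give no replicate numbers. Depth limits miR-193a-3p and miR-365b-5p most, at 1 to 12 reads a library.

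With total-count scaling, the log2 ratio of miR-193b-3p to control in BEAS-2B was 0.042 at 1 ng/mL and 1.36 at 5 ng/mL, that of 5 to 1 ng/mL in A549 was -0.23, and that of untreated A549 to BEAS-2B was 1.27. Summed miR-365-3p had 0.32 and 0.25 for A549 and -0.38 and 0.20 for BEAS-2B at the rising doses, -0.068 for 5 to 1 ng/mL in A549 and 0.56 between the untreated lines. The members past the criteria numbered 1 in each treated library, lower in BEAS-2B at 1 ng/mL (miR-365b-3p, -0.57) and higher in the other 3 (miR-193b-3p), and 0 for 5 to 1 ng/mL in A549. All miRNAs past the criteria numbered 70 and 79 in BEAS-2B at 1 and 5 ng/mL and 40 for 5 to 1 ng/mL in A549.

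With unscaled counts, miR-193b-3p had -0.12 and 1.42 in BEAS-2B, -0.74 for 5 to 1 ng/mL in A549 and 1.38 between the untreated lines. Summed miR-365-3p had -0.066 in A549 at 5 ng/mL, -0.54 and 0.26 in BEAS-2B, -0.57 and 0.80 for 5 to 1 ng/mL in the respective lines, and 0.67 between the lines. Members past the criteria numbered 1 in BEAS-2B at either dose, lower at 1 ng/mL (miR-365b-3p) and higher at 5 ng/mL (miR-193b-3p), and 3, each lower, for 5 to 1 ng/mL in A549; all miRNAs numbered 88 and 74 in BEAS-2B and 20 for its 5 to 1 ng/mL. With TMM on miRNAs with a mean count of at least 10, miR-193b-3p had 1.47 and summed miR-365-3p 0.32 in BEAS-2B at 5 ng/mL, with 1 member and 70 miRNAs past the criteria, and between the untreated lines they had 1.49 and 0.78. Totals without miR-21-5p gave summed miR-365-3p 0.79 in BEAS-2B at 5 ng/mL and 13 miRNAs for its 5 to 1 ng/mL. These 2 scalings, DESeq2 size factors and TMM within each line left 1 member past the criteria in A549 at 1 ng/mL.

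A fold of at least 2 left 0 members in A549 at 1 ng/mL and for its 5 to 1 ng/mL, and 1 in BEAS-2B at 5 ng/mL and for its 5 to 1 ng/mL; all miRNAs numbered 21, 42, 13 and 15 in the treated libraries, 0 and 2 for 5 to 1 ng/mL in A549 and BEAS-2B, and 55 between the untreated lines. An ND of at least 8 in both libraries left 0 members in BEAS-2B at 5 ng/mL, for its 5 to 1 ng/mL and between the untreated lines, and 44, 41, 29, 3 and 58 of all miRNAs in A549 at 1 and 5 ng/mL and in those comparisons. An interval wholly beyond 1.4-fold left 1 member in A549 at 1 ng/mL, 1 in BEAS-2B at 5 ng/mL and for its 5 to 1 ng/mL, and 0 for 5 to 1 ng/mL in A549, with 9 and 4 of all miRNAs for 5 to 1 ng/mL in A549 and BEAS-2B. An ND of at least 7 counted 1 member (miR-193b-5p) in A549 at 5 ng/mL and 40 and 16 of all miRNAs for 5 to 1 ng/mL in the same order.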
